A study of Homo sapiens with 12 samples.

Results

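H3K4me2, dimethylation of lysine 4 of histone H3, was compared between SW620 and SW480, human colorectal adenocarcinoma cell lines labelled Dukes' type C and Dukes' type B. Both lines were untreated and grown in DMEM with fetal bovine serum. They are widely used as a pair, SW480 from a primary tumour and SW620 from a later lymph node metastasis of the same patient. Chromatin immunoprecipitation with sequencing gave 1 H3K4me2 library per line, so each line is represented by a single culture or preparation and no difference has a replicate check. The members are all regions of the H3K4me2 lists, 31768 in SW480 and 35114 in SW620, together 66882 of the 262931 regions and peaks in the 10 lists of the series. The H3K4me2 libraries were close in depth, with 20958795 tags in SW480 and 23671100 in SW620. The share of tags in regions was also close, 45.8% and 50.7%.

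Methylation of H3 lysine 4 is written by the MLL/SET1 family of methyltransferases. The trimethylated form, H3K4me3, concentrates at active promoters, whereas H3K4me2 is found at promoters and also at enhancers. H3K27ac, deposited by p300 and CBP, marks active promoters and enhancers, so a site with H3K4me2 and neither of the other marks is often called primed. H3K36me3 is laid down along transcribed gene bodies, and FOXA2 is a forkhead factor that can bind nucleosomal DNA in endoderm.

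A region was called shared when it overlapped an H3K4me2 region of the other line by 1 bp or more, and line-only otherwise. Line-only calls made up 23.2% of the SW480 list (7363 regions) and 30.2% of the SW620 list (10613 regions). With equal numbers of the widest regions taken from each list the shared shares were 74.8% and 74.75%. Lists of equal length give nearly equal shares by construction, because 94.7% of the sites called in both lines held 1 region of each. That setting therefore says nothing about the excess of line-only calls in SW620. A region missing from one list can lie just below the caller's threshold there, and no score per region was usable, so line-only describes the lists. Each region was also given a state in its own line: with H3K4me3, with H3K27ac but no H3K4me3 (acetylated), or with neither (bare). Bounds in parentheses after a share are 95% Wilson intervals unless another kind is named, and they cover counting error only. Neighbouring regions share a locus and are not independent, so the intervals are narrower than the true uncertainty.

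The larger number of regions in SW620 lay mostly in bare regions. SW620 had 11874 bare H3K4me2 regions, 33.8% of its list, and SW480 had 7458, 23.5% of its list. Acetylated regions numbered 7215 in SW620 and 6463 in SW480, 20.5% and 20.3% of the lists. Regions with H3K4me3 went the other way, with 16025 in SW620 and 17847 in SW480. The states rest on libraries that differed between the lines. For H3K4me3, 73.0% of tags lay in regions in SW480 and 52.0% in SW620. For H3K27ac the shares were 58.5% and 27.5%. The part of this difference in the state counts was not tested.

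Line-only H3K4me2 lay mostly outside H3K4me3. Of the 10613 SW620-only regions, 6412 were bare (60.4%), 3557 were acetylated (33.5%) and 644 had H3K4me3 (6.07%). Of the 7363 SW480-only regions, 4081 were bare (55.4%), 2520 were acetylated (34.2%) and 762 had H3K4me3 (10.3%). The shared share was 95.7% (95.4 to 96.0) with H3K4me3 in SW480 and 96.0% (95.7 to 96.3) in SW620. Among acetylated regions it was 61.0% (59.8 to 62.2) in SW480 and 50.7% (49.5 to 51.9) in SW620. Among bare regions it was 45.3% (44.2 to 46.4) in SW480 and 46.0% (45.1 to 46.9) in SW620. Within a state, the lines differed most in the acetylated one.

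Width differed strongly between the states and has to be set against these shares. Regions with H3K4me3 had a median width of 2897 bp in SW480 and 3049 bp in SW620. Acetylated regions had medians of 1817 and 1841 bp, and bare regions 1251 and 1255 bp, in that order. Of the bare regions, 71.3% in SW480 and 59.6% in SW620 were no wider than 1500 bp, where the narrowest call was 1001 bp. Line-only regions were narrower than shared ones within the acetylated state too, with medians of 1587 against 2019 bp in SW480 and 1563 against 2131 bp in SW620.

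Regions were therefore compared within width classes of 500 bp. In all classes with at least 20 regions of each state, H3K4me3 regions were the ones most often shared. In the class of 1001 to 1500 bp, 77.2% (74.7 to 79.5) of SW480 and 67.3% (63.9 to 70.5) of SW620 regions with H3K4me3 were shared. In the same class the shares were 43.8% (41.4 to 46.2) and 26.2% (24.2 to 28.2) for acetylated regions and 38.6% (37.3 to 39.9) and 35.1% (34.0 to 36.3) for bare ones. In the class of 2001 to 2500 bp, acetylated regions were shared in 69.5% (67.0 to 71.95) of SW480 and 62.2% (59.7 to 64.6) of SW620 cases, and bare ones in 66.3% (60.6 to 71.6) and 67.0% (63.9 to 70.0). Acetylated regions of SW620 fell below bare ones in all 6 classes with at least 20 regions of each, by 4.20 to 15.9 percentage points. In SW480 they lay above the bare ones in 4 of 5 such classes.

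**Figure D1:**
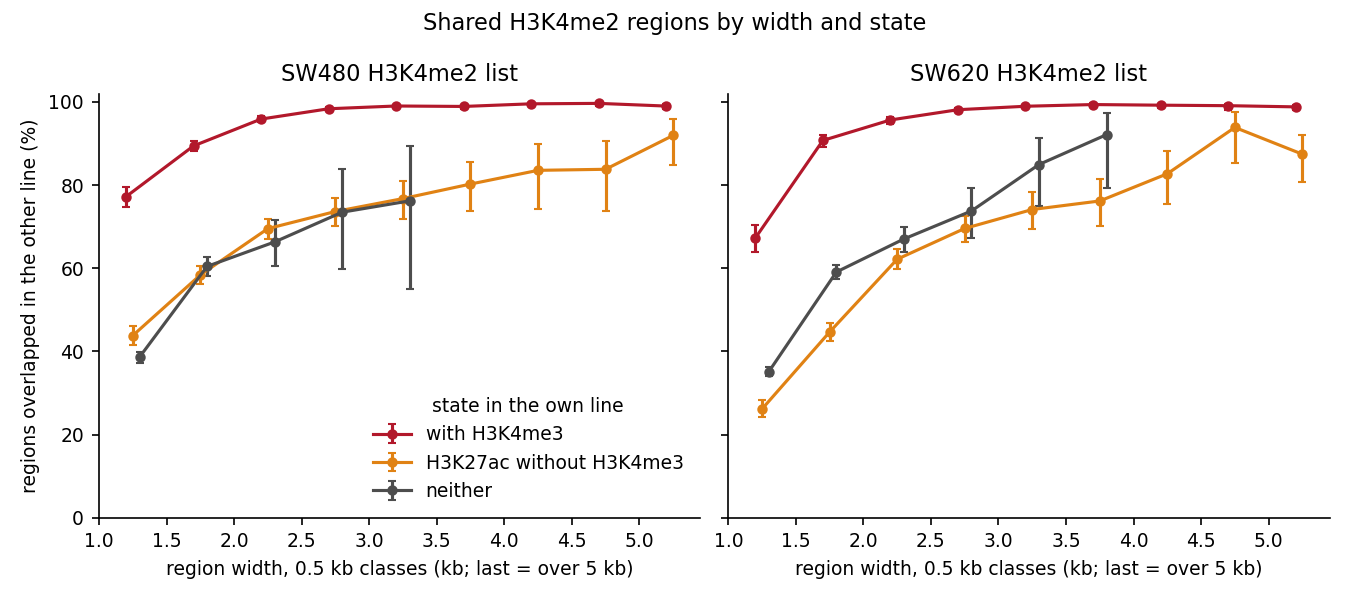
Share of H3K4me2 regions overlapped by an H3K4me2 region of the other line (vertical axis, %) by region width in classes of 0.5 kb (horizontal axis, kb), for the SW480 list on the left and the SW620 list on the right. Colours give the state in the own line, points are classes with at least 20 regions, and bars are 95% Wilson intervals. Regions with H3K4me3 start at 77.2% and 67.3% in the narrowest class and lie above the other states in each class where all 3 are drawn, while the orange and grey lines cross in SW480 and stay apart in SW620.

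With the same weights for the 5 classes from 1001 to 3500 bp in every state, the width-matched shared share of regions with H3K4me3 was 88.9% in SW480 and 85.8% in SW620. Its intervals, from the binomial error in each class, were 88.0 to 89.7 and 84.7 to 87.0. The width-matched share of acetylated regions was 59.8% (58.5 to 61.0) in SW480 and 48.5% (47.3 to 49.6) in SW620. That of bare regions was 57.9% (55.0 to 60.9) in SW480 and 57.6% (56.1 to 59.1) in SW620. The plain difference of 15.7 points between acetylated and bare regions in SW480 became 1.84 points (-1.36 to 5.03) after matching, an interval that includes 0. In SW620 the plain difference of 4.70 points became -9.12 (-10.99 to -7.25), but its direction turned to 16.8 points when marks of either line were counted for the state. That count takes 54.1% of the shared and 2.84% of the line-only bare SW620 regions out of the bare state. It therefore lowers the shared share of bare regions by construction and cannot test the direction. The distance of H3K4me3 regions from acetylated ones remained, at 29.1 points in SW480 and 37.4 in SW620.

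The SW620 value depends on which regions count as bare. Of the 11874 bare SW620 regions, 1792 overlapped H3K4me3 of SW480, and 1759 of these were shared. After removal of regions that lack H3K4me3 in their own line and carry it in the other, 4 width classes were left for matching. The width-matched share was then 44.6% (43.0 to 46.3) for bare and 42.9% (41.7 to 44.1) for acetylated SW620 regions. The difference was -1.67 points. No region with H3K4me3 was removed, yet the SW620 share of that state went from 85.8% over 5 classes to 84.2%. The shares before and after are therefore not over equal classes. Both alternatives were chosen after the data were seen. As the counts show, the removal takes out almost only shared regions in SW620.

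Where H3K4me2 was present in both lines, the further marks mostly matched as well. The state was the same in the other line for 81.7% of the 24405 shared SW480 regions and 81.6% of the 24501 shared SW620 regions. Shared SW620 regions with H3K4me3 had it in SW480 too in 97.2% (96.9 to 97.5) of cases. In the opposite direction the share was 87.2% (86.7 to 87.7), and 1737 SW480 regions with H3K4me3 (10.2%) were bare in SW620. Acetylated shared regions kept that state across the lines in 64.6% (63.1 to 66.1) for SW480 and 69.3% (67.8 to 70.8) for SW620. Bare shared regions had no further mark in either line in 73.9% (72.3 to 75.3) of cases when counted from SW480, and 45.9% (44.6 to 47.2) when counted from SW620.

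**Figure D2:**
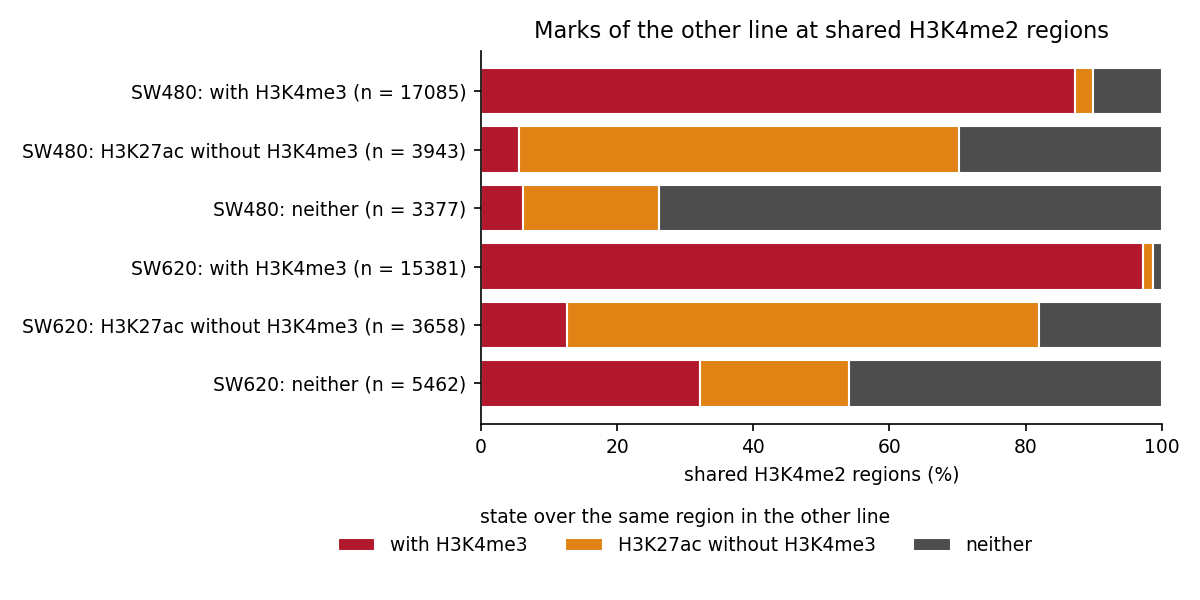
Shared H3K4me2 regions of either list (rows, by line and state in the own line, with n) split by the marks that the other line has over the same region (horizontal axis, % of the row). The lowest row shows that 32.2% of the bare shared SW620 regions carried H3K4me3 in SW480 and 21.9% were acetylated there, whereas 6.13% and 20.02% of bare shared SW480 regions had these states in SW620.

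Joined over both lists, H3K4me2 formed 41423 loci, of which 23679 were marked in both lines, 7279 in SW480 only and 10465 in SW620 only. Counted once per locus, changes of state ran more often from a fuller state in SW480 to a poorer one in SW620. H3K4me3 in SW480 met bare H3K4me2 in SW620 at 1713 loci and the reverse held at 190. Acetylation in SW480 met bare H3K4me2 in SW620 at 1110 loci and the reverse held at 633. Both directions go with the lower share of tags in regions of the SW620 H3K4me3 and H3K27ac libraries, whose part in these counts was not tested.

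The width of H3K4me2 moved with most changes of state. At 22421 loci each line had exactly 1 region, and the median ratio of SW620 to SW480 width was 1.00, with 80% of loci between 0.744 and 1.40. Where the site was bare in SW480 and acetylated in SW620, the median ratio was 1.42 over 612 loci, and 84.6% were wider in SW620. At the 1074 loci acetylated in SW480 and bare in SW620 the median was 0.831, and 27.7% were wider in SW620. Sites that were bare in SW480 and had H3K4me3 in SW620 had a median of 1.43 over 181 loci. For the reverse change it was 0.876 over 1692 loci. In these 4 pairings H3K4me2 was broader in the line that had the further mark. It was not at the 366 loci with H3K4me3 in SW480 and acetylation alone in SW620, where the median was 0.995 and 48.1% were wider in SW620. At the 159 loci with acetylation alone in SW480 and H3K4me3 in SW620, the median was 1.31 and 77.4% were wider in SW620. A wider region also has more room to overlap a mark, and this was not corrected for.

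At single sites with H3K4me3 in SW480 alone, H3K4me2 of SW620 covered only part of the SW480 region. On chromosome 7 from 120952807 to 120962639, SW480 had a 9.83 kb H3K4me2 region with H3K4me3 over 85.1% of it and H3K27ac over 73.2%. SW620 had H3K4me2 on 15.5% of the same stretch, with neither of the other marks. On chromosome 3 from 55517818 to 55525644, H3K4me2 of SW620 covered 16.0% of a 7.83 kb SW480 region that had H3K4me3 over 83.3%. On chromosome 1 from 59037467 to 59044811, 17.1% of a 7.35 kb region was covered in SW620. At these 3 sites SW620 had no H3K27ac. At the other 2 of the 5 sites chosen by this rule, on chromosomes 17 and 12, SW620 H3K4me2 covered 36.7% and 32.0% and SW620 H3K27ac 49.7% and 51.3%.

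The reverse was seen at sites with H3K4me3 in SW620 alone. On chromosome 2 from 240210175 to 240223571, SW620 had 13.4 kb of H3K4me2 with H3K4me3 over 70.7% and H3K27ac over 89.6%, while SW480 had H3K4me2 over 15.7% and H3K27ac over 15.5%. On chromosome 17 from 48254392 to 48260128, a 5.74 kb SW620 region with H3K4me3 over 77.4% was covered by SW480 H3K4me2 to 36.2%, with no SW480 acetylation. At 2 further sites of the 5, on chromosomes 17 and 20, SW480 H3K4me2 covered 50.999% and 46.6% and SW480 H3K27ac 61.4% and 44.9%. The fifth, on chromosome 4, was 1.001 kb wide and was covered to 31.0%. No SW480 region was narrower than 1001 bp, so SW480 H3K4me2 was offset there and not narrower.

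At line-only regions the other line was largely without marks. Of the SW480-only regions, 4.05% (3.62 to 4.52) overlapped H3K4me3 or H3K27ac of SW620. Of the SW620-only regions, 6.18% (5.74 to 6.66) overlapped either mark in SW480. The share was highest for SW620-only regions with H3K4me3, at 12.9% (10.5 to 15.7). Counting H3K4me3 alone, 11.3% (9.11 to 14.02) of them had it in SW480 without an H3K4me2 call. Of the acetylated line-only regions, 8.53% (7.503 to 9.69) were acetylated in SW620 and 11.0% (9.98 to 12.0) in SW480, that is in the line without the H3K4me2 call. Acetylation in the opposite line was found at 1.20% (0.909 to 1.58) of bare SW480-only and 2.40% (2.05 to 2.81) of bare SW620-only regions. In each of these pairs the share was lower where the marks were those of SW620. The SW620 H3K4me3 and H3K27ac libraries had the lower share of tags in regions, whose part in these shares was not tested.

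Most line-only regions stood away from H3K4me2 of the other line. An other-line region lay within 5 kb of 22.1% (21.2 to 23.1) of SW480-only and 23.4% (22.6 to 24.2) of SW620-only regions. This left 5733 SW480-only and 8127 SW620-only regions that were isolated by that measure. Line-only regions without H3K4me3, isolated or not, were also compared by their distance from that mark. Bare line-only regions had a median distance of 46.9 kb in SW480 and 39.3 kb in SW620 from the nearest H3K4me3 region of their own line, against 28.1 and 36.1 kb for bare shared ones. Acetylated line-only regions lay 30.0 and 35.7 kb away, against 22.5 and 26.7 kb when shared. In both states and both lists the median distance was longer for line-only than for shared regions.

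The 5 widest isolated line-only regions with H3K4me3, picked for their width, ran from 6.15 to 11.9 kb in SW480 and from 6.60 to 8.23 kb in SW620. In SW480 the widest was 11.9 kb long, on chromosome 17 from 26276871 to 26288745, with 1 H3K4me3 and 1 H3K27ac region in SW480 and no histone region in SW620. The next, on chromosome 12 from 116954440 to 116964042, was 9.60 kb long with 2 H3K4me3 and 2 H3K36me3 regions in SW480 and none in SW620. In SW620 the widest was 8.23 kb long, on chromosome 16 from 12993228 to 13001458, with 1 H3K4me3, 1 H3K27ac and 2 H3K36me3 regions in SW620 and none in SW480. On chromosome 16 from 50535056 to 50542930, 7.88 kb of SW620 H3K4me2 held 2 H3K4me3 regions and 2 FOXA2 peaks, and SW480 had 1 H3K27ac region there.

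Acetylated isolated regions reached 8.35 kb in SW620 and 6.06 kb in SW480. The former, on chromosome 15 from 81129090 to 81137438, had 1 H3K27ac region, 3 H3K36me3 regions and 1 FOXA2 peak in SW620, and 1 H3K36me3 region in SW480. The latter, on chromosome X from 68157123 to 68163183, had 1 H3K27ac region in SW480 and nothing in SW620. Bare isolated regions were shorter, at most 4.42 kb in SW620 (chromosome 6 from 43772539 to 43776959) and 3.17 kb in SW480 (chromosome 7 from 132823518 to 132826688). H3K27ac of SW480 covered 9.91% of the bare SW620 region on chromosome 6, where SW480 had no H3K4me2 call.

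By contrast the widest H3K4me2 regions were common to the lines. The longest of both lists lay on chromosome 17, 47.7 kb in SW480 (46650123 to 46697837) and 45.6 kb in SW620 (46651842 to 46697486). SW620 H3K4me2 covered 95.7% of the SW480 region, and on chromosome 7 from 27185486 to 27220302 it covered 96.3% of a 34.8 kb region. Exceptions stood among the 5 widest of each list. A 31.1 kb SW480 region on chromosome 17 (63526223 to 63557283) was covered to 49.9% in SW620, and H3K4me3 lay over 70.6% of its length in SW480 and 26.95% in SW620. A 35.2 kb SW620 region on chromosome 2 (240140678 to 240175836) was covered to 49.0% in SW480, with H3K4me3 over 44.8% in SW620 and 17.0% in SW480. It lies next to the chromosome 2 site above that had H3K4me3 in SW620 alone.

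SW620-only H3K4me2 held FOXA2, which the classes did not use, more often than shared H3K4me2 of the same width in all 3 states. Of the bare SW620 regions, 21.3% (20.3 to 22.3) of 6412 line-only and 12.7% (11.9 to 13.6) of 5462 shared ones held an SW620 FOXA2 peak. Over the 4 width classes from 1001 to 3000 bp the matched shares were 29.8% (27.4 to 32.2) and 14.8% (13.5 to 16.2). Acetylated regions held a peak in 31.7% (30.2 to 33.2) of line-only and 30.8% (29.3 to 32.3) of shared cases. After matching, the shares were 32.6% (30.9 to 34.2) and 24.3% (22.6 to 25.9). For regions with H3K4me3 the matched shares were 31.5% (27.7 to 35.3) line-only and 12.1% (10.7 to 13.4) shared. The matched difference was 19.4 points with H3K4me3, 8.33 for acetylated and 14.99 for bare regions. With the first-listed 50% of peaks it was 10.1, 6.79 and 10.9 points, so the order of the states is not settled.

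**Figure D3:**
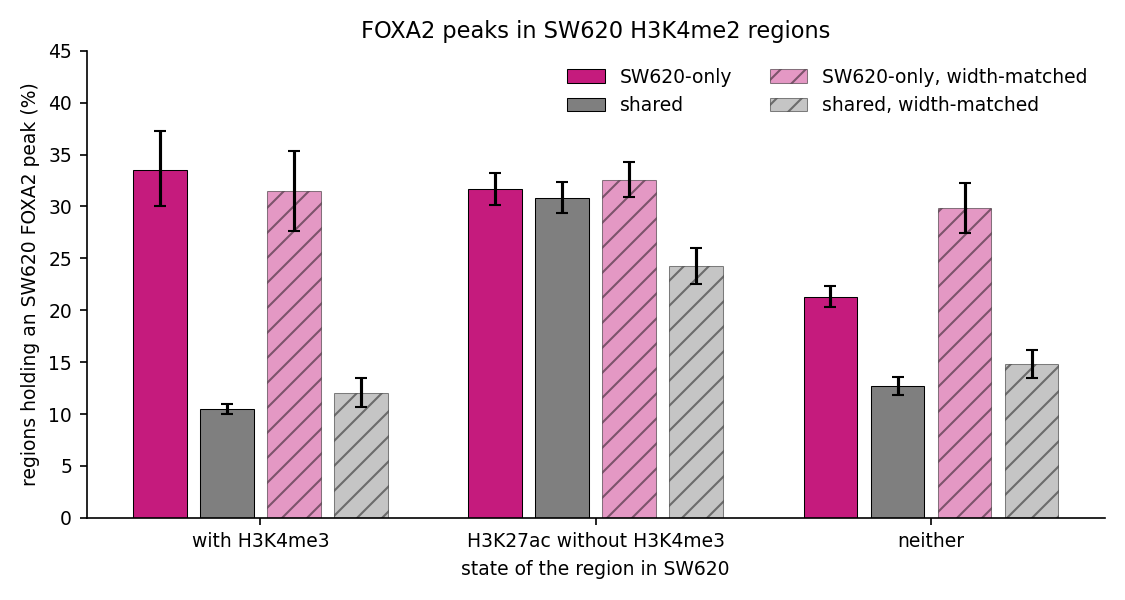
Share of SW620 H3K4me2 regions that hold an SW620 FOXA2 peak (vertical axis, %) by state (horizontal axis), for SW620-only and shared regions, plain and with common weights over 4 width classes (hatched). Bars carry 95% intervals. The hatched SW620-only bars stand at 31.5%, 32.6% and 29.8%, above the hatched shared bars at 12.1%, 24.3% and 14.8%.

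In SW480 the FOXA2 list was shorter, and the intervals of line-only and shared regions overlapped in all 3 states, plain and matched. Peaks lay in 0.784% (0.556 to 1.10) of bare SW480-only regions and 1.13% (0.821 to 1.54) of bare shared regions. For acetylated regions the shares were 0.913% (0.609 to 1.37) and 1.19% (0.898 to 1.58), and with H3K4me3 1.44% (0.808 to 2.57) and 0.790% (0.668 to 0.934). Matched over 3 width classes, the bare shares had the opposite order, 2.01% (0.827 to 3.19) line-only and 1.11% (0.658 to 1.57) shared. The matched shares were 0.749% (0.378 to 1.12) and 0.888% (0.554 to 1.22) for acetylated regions and 1.38% (0.476 to 2.28) and 0.476% (0.275 to 0.677) with H3K4me3. The SW620 FOXA2 peaks in turn lay in 4.02% (3.46 to 4.67) of the bare and 4.68% (3.92 to 5.58) of the acetylated SW480-only regions. The same peaks lay in 16.8% (15.6 to 18.1) of bare and 26.9% (25.5 to 28.3) of acetylated SW480 regions that were shared. The SW480 FOXA2 library had few tags in peaks (0.590%, against 2.25% in SW620). Its peaks were also narrower, with a median of 127 bp against 319 bp in SW620. What either does to the SW480 shares was not tested.

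Over all states, line-only H3K4me2 was less often near H3K36me3 than shared H3K4me2 was. This comparison mixes states, since 70.0% of shared SW480 and 62.8% of shared SW620 regions had H3K4me3, against 10.3% and 6.07% of line-only ones. Widths were not matched here. H3K36me3 of the own line lay within 5 kb of 15.7% (14.9 to 16.6) of SW480-only and 37.5% (36.9 to 38.1) of shared SW480 regions. In SW620 the shares were 16.1% (15.4 to 16.8) and 33.5% (32.9 to 34.1). With H3K4me3 the gap was wider, at 9.58% (7.69 to 11.9) of SW480-only against 43.8% (43.1 to 44.6) of shared regions, and 10.9% (8.69 to 13.5) against 43.8% (43.0 to 44.6) in SW620. Acetylated ones were near H3K36me3 in 26.9% (25.2 to 28.7) of SW480-only and 31.1% (29.7 to 32.6) of shared cases, and in 26.3% (24.9 to 27.8) and 27.3% (25.9 to 28.8) in SW620. Bare regions of SW480 had 9.92% (9.04 to 10.9) line-only and 12.7% (11.7 to 13.9) shared. Bare SW620 regions went the other way, with 10.9% (10.2 to 11.7) line-only and 8.50% (7.78 to 9.26) shared. Counted by overlap in place of 5 kb, the difference over all states shrank from -21.7 to -8.63 points in SW480 and from -17.4 to -7.16 in SW620.

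H3K36me3 found in one line alone was divided differently near line-only and shared H3K4me2. Near acetylated SW480-only regions, H3K36me3 was present in SW480 alone at 264 and in SW620 alone at 41, a ratio of 6.44. Near acetylated shared SW480 regions the counts were 363 and 168, a ratio of 2.16. The SW480 H3K36me3 list is the longer one, with 52664 regions against 45466. Near acetylated SW620-only regions, 277 had H3K36me3 in SW620 alone and 157 in SW480 alone, a ratio of 1.76 against 0.526 at shared SW620 regions. For bare regions the ratios were 1.77 and 1.09 in SW480 and 0.498 and 0.249 in SW620, line-only first. In both lists the ratio was higher at line-only than at shared regions in every state, although near bare SW620-only regions H3K36me3 of SW480 alone was the more frequent (293 against 146).

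Line-only regions lay together along the chromosomes. Because states cluster too, this was measured over regions without H3K4me3, listed in order. The next region after an SW480-only one was SW480-only in 54.8% (53.6 to 56.1) of cases, and after a shared one in 40.7% (39.6 to 41.9). In SW620 the shares were 57.7% (56.7 to 58.6) and 46.2% (45.2 to 47.3). Acetylated regions alone gave 56.6% (55.0 to 58.3) after SW620-only against 42.1% (40.5 to 43.7) after shared ones, and bare regions alone 57.4% (56.2 to 58.6) against 50.01% (48.7 to 51.3). In SW480 the pairs were 45.1% (43.1 to 47.0) and 35.1% (33.6 to 36.6) for acetylated and 60.1% (58.6 to 61.6) and 48.3% (46.6 to 49.995) for bare regions.

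The excess was short-ranged. Partners within 5 kb of an SW620-only region without H3K4me3 were SW620-only in 67.6% of 2110 pairs, against 52.2% of all such regions. At 10 to 25 kb the share was 57.1%, at 50 to 100 kb 53.7%, and from 100 kb on it lay between 50.2% and 51.5%. In SW480 it was 59.2% of 1000 pairs within 5 kb, against 47.4% of all, and 51.1% at 10 to 25 kb. From 50 kb on, SW480 partners lay within 1 percentage point of the share of all regions. Pairs share regions and are given as a description.

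**Figure D4:**
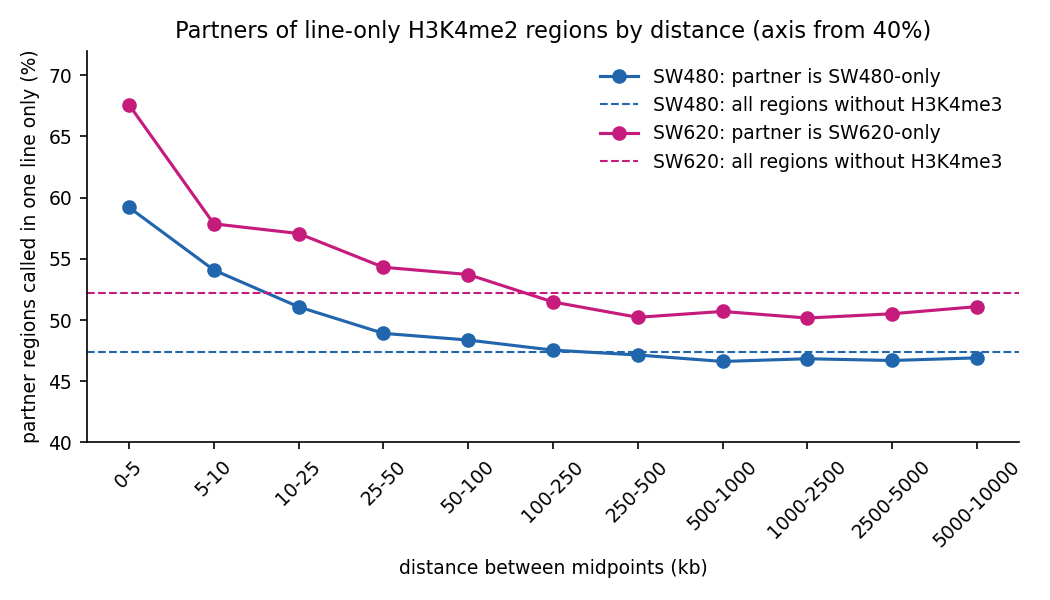
Share of partner regions that were line-only (vertical axis, %, starting at 40) by the distance between midpoints (horizontal axis, kb) for pairs of H3K4me2 regions without H3K4me3 whose first member is line-only. Dashed lines give the share over all such regions, 47.4% in SW480 and 52.2% in SW620. Both curves fall from 59.2% and 67.6% within 5 kb to their dashed lines by about 100 kb.

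Line-only regions of the 2 lines kept apart from each other. Over the 41423 joined loci, the locus after an SW620-only one was SW620-only in 35.1% (34.2 to 35.99) of cases and SW480-only in 13.1% (12.5 to 13.8). Of all following loci 25.2% were SW620-only and 17.6% were SW480-only. After an SW480-only locus the shares were 29.8% (28.8 to 30.9) SW480-only and 18.3% (17.4 to 19.2) SW620-only. Neighbours of the same line were thus 1.39 and 1.70 times as frequent as among all loci, and neighbours of the opposite line 0.748 and 0.725 times. These loci include those with H3K4me3, so the ratios mix in the clustering of states. Within each list, the same-line ratio was 1.30 in SW620 and 1.47 in SW480 over all regions. Over regions without H3K4me3 it was 1.10 and 1.16.

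Runs of 5 or more consecutive line-only regions differed in make-up between the lines. There were 241 such runs in SW620 with 1577 regions, 14.9% of its line-only regions, and 120 in SW480 with 790 regions, 10.7%. A higher line-only share gives more such runs by itself, and that share was 30.2% in SW620 and 23.2% in SW480. The run counts therefore do not compare the strength of clustering between the lines. Acetylated regions made up 45.7% (43.2 to 48.1) of the SW620 runs and 31.4% (30.4 to 32.4) of the other SW620-only regions. In SW480 the order was the opposite, with 26.1% (23.1 to 29.2) in runs and 35.2% (34.1 to 36.4) outside. SW480 runs were 64.1% (60.6 to 67.3) bare and were the more spread out, with a median gap between regions of 41.4 kb against 23.4 kb in SW620. Regions in SW620 runs held an SW620 FOXA2 peak in 30.4% (28.2 to 32.8) of cases, and other SW620-only regions in 24.6% (23.8 to 25.5). The order was the same for SW480 peaks in SW480-only regions, with 1.65% (0.964 to 2.79) in runs and 0.806% (0.617 to 1.05) outside. Neither states nor widths were matched for these FOXA2 shares.

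The longest SW620 run had 24 H3K4me2 regions on chromosome 3 between 77308300 and 79044784, of which 17 were acetylated and 7 bare. This stretch of 1.74 Mb carried 19 H3K27ac and 27 H3K36me3 regions in SW620 and none of the 4 histone marks in SW480. FOXA2 peaks numbered 7 in SW620 and 1 in SW480. The next, on chromosome 12 between 92212576 and 92424851, had 20 regions in 0.212 Mb, 16 of them acetylated and 3 with H3K4me3. Just beyond it, between 92431836 and 92532804, a further run of 16 regions was acetylated at 14. On chromosome 3 between 98632479 and 99440754, 16 SW620-only regions, 9 of them acetylated, came with 10 SW620 FOXA2 peaks, and SW480 had 4 H3K27ac regions there. On chromosome 14 between 54514533 and 54692604, 14 of 15 regions were acetylated, with 5 SW620 FOXA2 peaks.

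The longest SW480 runs were stretches of narrow, bare regions. On chromosome 7 between 66903408 and 69033878, 22 SW480-only regions, none wider than 2123 bp, lay over 2.13 Mb, and 19 of them were bare. The stretch held 3 H3K27ac regions and no H3K36me3 in SW480, and no histone region in SW620. FOXA2 peaks numbered 11 in SW480 and 2 in SW620, although the SW620 FOXA2 list is the longer one. On chromosome 14 between 72021192 and 73076566, 13 of 14 regions were bare, and H3K36me3 was called there in both lines, with 8 regions in SW480 and 5 in SW620. On chromosome 16 between 73299133 and 74204920, 10 of 13 were bare and 3 had H3K4me3. On chromosome 5 between 3659971 and 4416830, all 11 were bare. Of the 5 longest SW480 runs, only the one on chromosome 7 had more SW480 than SW620 FOXA2 peaks. The counts, SW480 first, were 1 and 2 on chromosome 14 and 2 and 2 on chromosome 16. They were 0 and 4 on chromosome 5, and 0 and 0 in a run on chromosome 2.

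The SW620 list was the longer one, and its excess of line-only calls was spread over most chromosomes. SW620-only regions outnumbered SW480-only ones 1.44 times over all chromosomes, and on 22 of 23 chromosomes other than Y. The ratio ran from 0.954 on chromosome 20 (290 against 304) to 2.16 on chromosome 13 (330 against 153), with 2.12 on chromosome 3 and 1.94 on chromosome 6. The SW620 list was itself the longer one on those 22 chromosomes. Its length relative to the SW480 list was 1.29 on chromosome 13, 1.24 on 3, 1.20 on 6 and 0.990 on 20. Shared sites mostly held 1 region of each line, so the direction of the balance follows the list lengths by construction. Among regions without H3K4me3, the SW620-only share was lowest on chromosome 19 (40.1%) and highest on chromosome 13 (61.0%). The SW480-only share was lowest on chromosome 19 as well (40.1%) and highest on chromosome X (59.7%).

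The balance was also counted in windows of 1 Mb, where low numbers alone spread the shares widely, and no spread without a difference was computed. Of the 272 windows with at least 15 line-only regions, 185 had more SW620-only and the rest had as many or more SW480-only regions. The SW620 share of line-only regions had a median of 60.0%, close to the 59.0% over the lists. It was 80% or more in 43 windows, and 20% or less in 12. On chromosome 12 from 92 to 93 Mb, 39 regions were SW620-only and 0 SW480-only, and 32 of the 39 were acetylated. On chromosome 14 from 54 to 55 Mb the counts were 24 and 1, and on chromosome 6 from 56 to 57 Mb 19 and 0. At the other end, chromosome 12 from 8 to 9 Mb had 18 SW480-only and 0 SW620-only regions, 8 of the 18 acetylated, with 22 H3K27ac regions in SW480 and 8 in SW620. Chromosome 16 from 73 to 74 Mb had 15 against 1, of which 2 were acetylated.

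**Figure D5:**
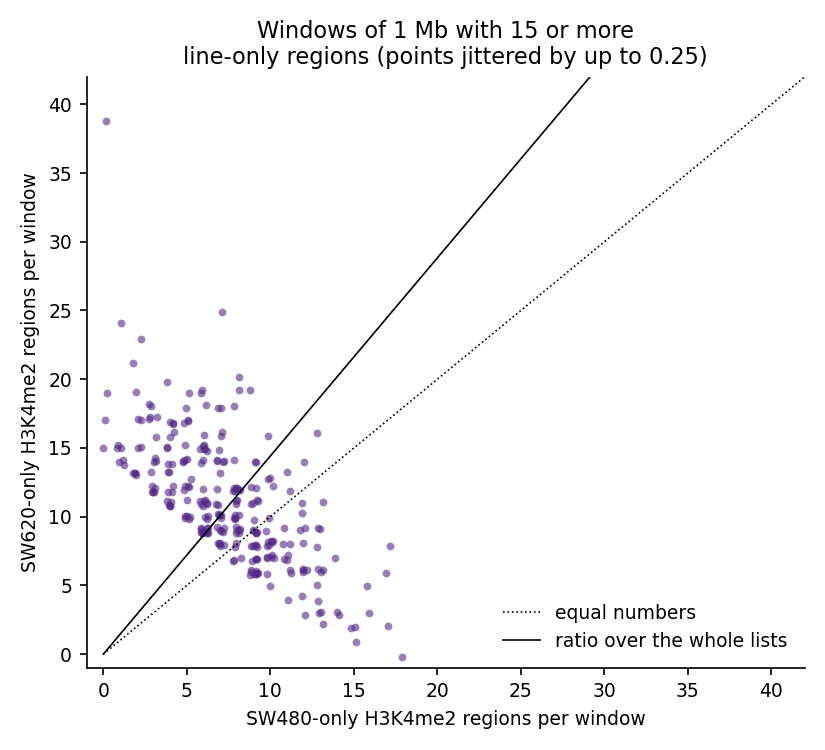
Numbers of SW480-only (horizontal axis) and SW620-only (vertical axis) H3K4me2 regions in each of the 272 windows of 1 Mb with at least 15 line-only regions, which leaves the lower left corner empty. The dotted line marks equal numbers and the solid line the ratio of 1.44 over the lists. The point at the top is the chromosome 12 window with 39 SW620-only and 0 SW480-only regions.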

How the data were processed

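H3K4me2 regions were compared between 1 SW480 and 1 SW620 library. Per the file headers, the authors used HOMER findPeaks on every library, with that line's input as control and a false discovery rate of 0.001. Histone libraries were called in histone style with a size of 1000 bp and 4-fold enrichment over input and over the local 10 kb. Neighbouring histone peaks were stitched into regions. FOXA2 peaks were called in factor style with 2-fold enrichment over input and over the local region. Their peak size was 126 bp in SW480 and 318 bp in SW620. The submitters' processing notes name hg19. The sources used here give neither the aligner nor the HOMER version. The deposited score is 1 in every row of the 10 lists, so the deposited start and end positions alone were used, printed counted from 1. Histone depth lay between 12791745 and 47867295 tags. Overlaps were found in Python 3.11.15 (numpy 2.4.6, pandas 2.3.3), and on simulated regions gave the same calls as bedtools 2.31.1. Wilson intervals came from scipy 1.17.1. Width-matched shares are means over width classes of 500 bp with at least 20 regions in every group compared, weighted by the H3K4me2 regions of both lists (for FOXA2, of the line's own list). With 1 library per line no test was run and no p-value is given.

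Regions were named by rule: the 5 widest isolated line-only regions per line and state, the 5 longest runs per line, the 5 most one-sided windows of 1 Mb per direction, the 5 widest regions per list, and the 5 shared regions per line with the widest H3K4me3 of that line alone. The text gives a selection of these in full. The members, lists and rules were chosen with earlier results of these data known. No genome or annotation of hg19 was at hand, so genes and sequences are not analysed here. Inputs enter only through the authors' calling.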

Additional observations from a re-analysis of the deposited data

How the results depend on the processing

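Shares moved with the overlap rule, and the state differences with how a state is called. Shared shares, SW480 first, were 71.6% and 64.7% with at least 50% of the region overlapped, 67.4% and 60.9% with 50% of both regions, and 77.9% and 71.3% with a region of the other line within 1 kb. With equal numbers of the widest regions they were 74.8% and 74.75%, nearly equal by construction because the lists then had the same length. With regions under 1 kb apart joined the SW620 share was 70.6%. The plain acetylated minus bare difference was 12.2 and 1.18 points with 50% of the region, 11.4 and 1.45 with 50% of both, and 1.14 in SW620 with equal numbers. With marks of either line counted it was 24.9 and 25.6 points, and the width-matched difference was 14.2 in SW480 and 16.8 in SW620. The SW620 direction turns there, but this setting takes mainly shared regions out of the bare state and cannot test it. In the lists, 298 SW480-only and 656 SW620-only regions carry a mark of the other line. That alternative and the removal of regions with H3K4me3 in the other line alone (-1.67 in SW620) were chosen after the data were seen. The removal left 4 width classes in place of 5 for its matched values. The width-matched H3K4me3 minus acetylated difference was 31.1 and 40.6 points with weights of regions without H3K4me3, 30.9 and 41.3 after that removal, and 26.9 in SW480 with marks of either line. With marks within 1 kb, 6.22% of SW480-only and 9.24% of SW620-only regions had H3K4me3 or H3K27ac in the other line. The clustering difference without H3K4me3 was 14.1 and 11.4 points, 11.9 and 8.72 over pairs more than 5 kb apart, and 16.2 and 13.5 with sharing within 1 kb. With the first-listed 50% of FOXA2 peaks the width-matched line-only excess was 10.1 points with H3K4me3 and 10.9 for bare regions, from 19.4 and 14.99. Over all states together, which differ in make-up, the H3K36me3 difference between line-only and shared regions was -21.7 and -17.4 points within 5 kb. It was -8.63 and -7.16 on overlap, and -25.0 and -19.5 within 10 kb. No paired analysis was possible because each line has 1 library per antibody and no result comes from a test. Depth limits these lists, since a region below threshold in one library cannot be told from an absent one.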
